A study of Mus musculus with 6 samples.

Results

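Genes that make or bind hyaluronan were followed through colon tumor stroma, namely the synthases Has1 and Has2, the secreted binding or crosslinking proteins Tnfaip6, Ptx3, Hapln1 and Vcan, and the receptor Cd44. They were chosen by name and are 7 of the 19069 genes that the count tables list on at least 1 plate. By their mean over mice, both synthases, Tnfaip6 and Ptx3 were highest in iCAF-like fibroblasts and low in telocyte-like fibroblasts, Hapln1 was highest in fibroblasts marked by Cxcl13 and Grem1, Vcan was high in all 3 large fibroblast subtypes, and Cd44 was highest in neutrophil-like cells.

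Hyaluronan is a long sugar polymer of the extracellular matrix. The synthases sit in the plasma membrane and join UDP-glucuronic acid and UDP-N-acetylglucosamine into a chain that is pushed out of the cell. Outside, TSG-6 (the product of Tnfaip6) transfers heavy chains onto the chain, pentraxin 3 (Ptx3) helps to hold these heavy chains together, and link protein (Hapln1) locks the proteoglycan versican (Vcan) onto it. Cd44 is the main surface receptor for hyaluronan on leukocytes and many other cells.

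Cells were isolated from colon tumors of mice given azoxymethane and dextran sulfate sodium, a carcinogen and a colitis-inducing agent, and sorted as EPCAM-, CD45- and CD31-negative. There were 3 Zeb1Fib-Ctrl mice (plates 1, 3 and 4), negative for the Col6a1-Cre transgene, and 3 Zeb1Fib-deleted mice (plates 2, 5 and 6), in which this transgene deletes floxed Zeb1. By the study's design both groups carry the floxed allele, and Cre is driven constitutively by the Col6a1 promoter, which is active in fibroblasts. Each mouse filled 1 plate of 384 wells, measured by SORT-seq, in which the transcripts of a well are counted by molecular barcodes at their 3′ end.

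Of 2304 wells, 1233 held 100 to 6000 genes and under 10% mitochondrial transcripts, between 109 and 298 on a plate. The median kept well had 1687 to 11160 transcripts, depending on the plate. Wells were assigned to classes by marker lists without any of the 7 genes. Although all samples carry the label CAFs, 533 wells passed as fibroblasts. A further 432 were neutrophil-like, 113 mural-like (pericytes and smooth muscle) and 103 epithelial-like, while 12 had other immune markers, 9 glial markers and 31 no leading list. The sort was against CD45, yet its gene Ptprc stood at 1444 CPM (transcripts per 1000000) in neutrophil-like wells, against 3.70 CPM in fibroblast wells. Of the fibroblast wells, 241 were iCAF-like (inflammatory, by markers such as Pi16, Clec3b and C3), 119 telocyte-like (by markers such as Foxl1, F3 and Bmp7), 107 led by Cxcl13 and Grem1, 17 led by Myoc and Angptl7, and 49 shallow wells had no leading list. The Myoc and Angptl7 wells all came from plate 5, so that this class and that mouse cannot be told apart. Plates 3 and 6 held only 17 and 14 fibroblast wells. Zeb1 itself stood at 115, 114 and 102 CPM in the fibroblast wells of plates 1, 3 and 4 and at 58.6, 71.5 and 66.7 CPM in those of plates 2, 5 and 6. The genotypes did not overlap, which held for 6.22% of the 8491 genes tested in fibroblast wells. The log2 fold change of Zeb1 was -0.72 ± 0.22 and did not pass the adjustment over all genes (adjusted p = 0.9996, edgeR). Counts of 3′ ends do not show whether a transcript lacks the deleted part.

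In the mouse genome (GRCm38), Has1 lies at chr17:17843323-17855205, Has2 at chr15:56665627-56694539 and Cd44 at chr2:102811141-102901665, all on the minus strand. Tnfaip6 lies at chr2:52038009-52056686 and Ptx3 at chr3:66219910-66225805, both on the plus strand. Hapln1 (chr13:89539796-89611652, plus strand) and Vcan (chr13:89655312-89742509, minus strand) are neighbors. Ptx3 overlaps Veph1 on the opposite strand, which had 54 transcripts over all wells, and Has2 overlaps Has2os. RefSeq (GRCm38.p6) gave 300-base promoter windows, 250 bases before and 50 after the start, for 6 members, all but Has2. Those of Has1, Tnfaip6 and Ptx3 are shown because these 3 genes, like Has2, had their highest mean in iCAF-like cells. Capitals mark matches to a cAMP response element (TGACGTCA), an AP-1 site (TGANTCA) or a kappa-B motif.
Has1, chr17:17855139-17855438, minus strand: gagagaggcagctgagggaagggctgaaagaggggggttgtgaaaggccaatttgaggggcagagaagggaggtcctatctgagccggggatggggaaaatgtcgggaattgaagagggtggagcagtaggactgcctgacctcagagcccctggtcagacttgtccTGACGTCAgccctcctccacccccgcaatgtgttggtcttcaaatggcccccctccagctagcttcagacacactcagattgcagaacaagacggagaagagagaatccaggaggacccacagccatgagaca
Tnfaip6, chr2:52037863-52038162, plus strand: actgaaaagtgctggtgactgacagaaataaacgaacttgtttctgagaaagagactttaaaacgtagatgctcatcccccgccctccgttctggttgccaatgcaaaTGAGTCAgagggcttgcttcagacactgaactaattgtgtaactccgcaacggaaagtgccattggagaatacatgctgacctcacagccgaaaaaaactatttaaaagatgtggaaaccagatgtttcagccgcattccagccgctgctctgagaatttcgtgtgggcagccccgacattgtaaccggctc
Ptx3, chr3:66219637-66219936, plus strand: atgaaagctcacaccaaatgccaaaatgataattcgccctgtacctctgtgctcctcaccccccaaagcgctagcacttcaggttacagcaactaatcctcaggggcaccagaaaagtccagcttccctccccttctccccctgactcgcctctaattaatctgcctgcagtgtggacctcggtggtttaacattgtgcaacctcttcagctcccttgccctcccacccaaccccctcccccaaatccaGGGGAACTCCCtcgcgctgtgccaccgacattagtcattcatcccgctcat
Each of the 3 windows held a different one of these motifs. On either strand, a cAMP response element was found in 1.79% of all 32851 promoter windows, an AP-1 site in 7.81% and a kappa-B motif in 8.46%. In Ptx3 the kappa-B matches overlap each other, on both strands and across the start. The E-box CACCTG, a motif bound by Zeb1, was found in 20.2% of all windows and in none of the 6 windows of members, and the TATA box TATAAA in 13.6% and none.

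Fibroblasts held nearly all transcripts of the matrix members. The share of kept transcripts that came from fibroblast wells was 98.6% for Has1, 94.2% for Has2, 96.4% for Tnfaip6, 99.7% for Ptx3, 98.3% for Hapln1 and 94.0% for Vcan, against 37.7% for Cd44. These shares include the depth of the wells, since fibroblast wells had a median of 11730 transcripts and neutrophil-like wells 1441. Cd44 was the most widely detected, in 966 of 1233 wells, followed by Tnfaip6 in 497 and Vcan in 481. Has1 was detected in 312 wells, Has2 in 182, Hapln1 in 104 and Ptx3 in 78. Ptx3 was also the most concentrated: the 10 highest wells, all iCAF-like and all from plate 1, held 61.4% of its transcripts. For the other members the 10 highest wells held between 7.57% (Cd44) and 37.4% (Hapln1). No row for Ptx3 is listed on plate 6.

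**Figure D1:**
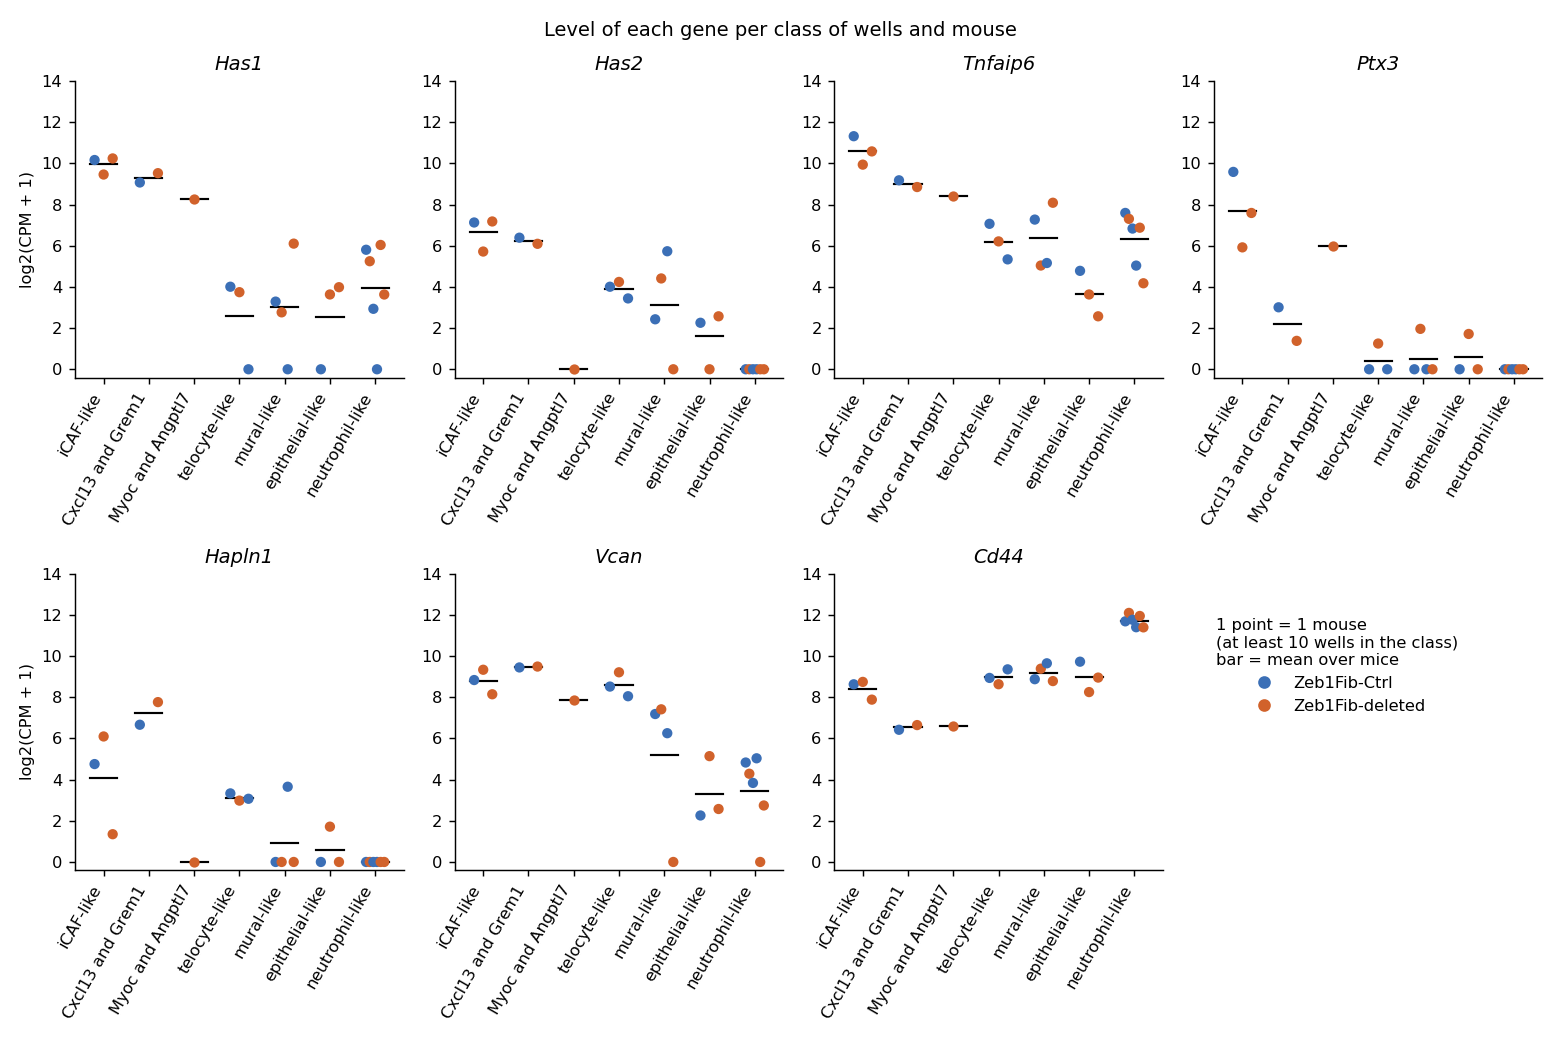
Level of the 7 genes, as log2(CPM + 1), in each class of wells (horizontal axis); 1 point is 1 mouse with at least 10 wells in the class and the bar is the mean over mice. Has1, Has2, Tnfaip6 and Ptx3 have their highest mean in iCAF-like wells, Hapln1 and Vcan in Cxcl13 and Grem1 wells, and Cd44 in neutrophil-like wells.

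In the order of means, several neighbors overlapped. Has2 ranged from 51.6 to 144 CPM over the iCAF-like wells of 3 mice and stood at 82.9 and 67.3 CPM in the Cxcl13 and Grem1 wells of 2 mice, and for Has1 (703 to 1209 CPM against 537 and 736 CPM) the ranges also met. Tnfaip6 did not overlap between these classes, with 981 to 2556 CPM against 578 and 461 CPM. The Myoc and Angptl7 wells of the single mouse had 309 CPM of Has1, 345 of Tnfaip6, 61.8 of Ptx3, 230 of Vcan and 97.2 of Cd44, and no transcript of Has2 or Hapln1, which at their depth allows up to 26.5 CPM (3 counts).

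The iCAF-like wells were compared with all other fibroblast wells of the same mouse, which had at least 10 wells of each kind on plates 1, 2 and 5. Both synthases, Tnfaip6 and Ptx3 were higher, while Hapln1, Vcan and Cd44 did not pass the test (edgeR quasi-likelihood test, mouse as a block, Benjamini-Hochberg over all genes tested). The 4 calls among 7 members were all upward, beside 4.65% of the 8609 genes tested called higher and 3.95% lower, 8.6% in all. Ptx3 was past the filter on low counts in the other fibroblast wells of only 1 of the 3 mice. It reached the filter only through the iCAF-like wells, so that its call adds no support to this count.

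Has1, a synthase that inflammatory cytokines can induce, stood at 1146, 703 and 1209 CPM in the iCAF-like wells of plates 1, 2 and 5, and at 323, 332 and 169 CPM in the other fibroblast wells. All 3 mice were higher in iCAF-like wells and the ranges did not overlap. The log2 fold change was 1.99 ± 0.28 (SE), with an adjusted p of 0.0025. Has2, the synthase needed for embryonic heart development, had lower counts. It reached 139, 51.6 and 144 CPM against 53.8, 39.7 and 39.2 CPM, so that the iCAF-like value of plate 2 was below the highest value of the other wells. Its log2 fold change was 1.28 ± 0.27 with an adjusted p of 0.016, and 0.075 without plate 1. Without telocyte-like wells in the comparison, a setting chosen after the data had been seen, neither synthase passed: the log2 fold change was 1.26 for Has1 (adjusted p = 0.12) and 0.76 for Has2 (adjusted p = 0.28).

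Tnfaip6, which is induced by TNF and IL-1, had the smallest p of the 7 genes here. It stood at 2556, 981 and 1532 CPM in iCAF-like wells and at 396, 247 and 307 CPM in other fibroblast wells of plates 1, 2 and 5, a log2 fold change of 2.47 ± 0.18 (adjusted p = 0.00012). Ptx3, an acute-phase pentraxin, had 768, 59.5 and 192 CPM against 6.21, 1.42 and 54.2 CPM. It was higher in iCAF-like wells of all 3 mice, with plate 1 far above the others. Its log2 fold change was 4.70 ± 0.74 (adjusted p = 0.0041), and without plate 2 it did not pass (log2 fold change 4.48, adjusted p = 0.091), while the fold change was 2.94 without plate 1 and 6.79 without plate 5.

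The 3 remaining genes did not follow this pattern. Vcan stood at 456, 646 and 283 CPM in iCAF-like wells and 571, 650 and 410 CPM in the others (log2 fold change -0.14 ± 0.15, adjusted p = 0.67). Cd44 had 395, 429 and 235 CPM against 288, 269 and 268 CPM (0.48 ± 0.18, adjusted p = 0.16). Hapln1 was below the other fibroblasts in all 3 mice, at 26.0, 67.4 and 1.55 CPM against 63.1, 99.9 and 90.3 CPM, without passing the test (-1.26 ± 0.46, adjusted p = 0.14).

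**Figure D2:**
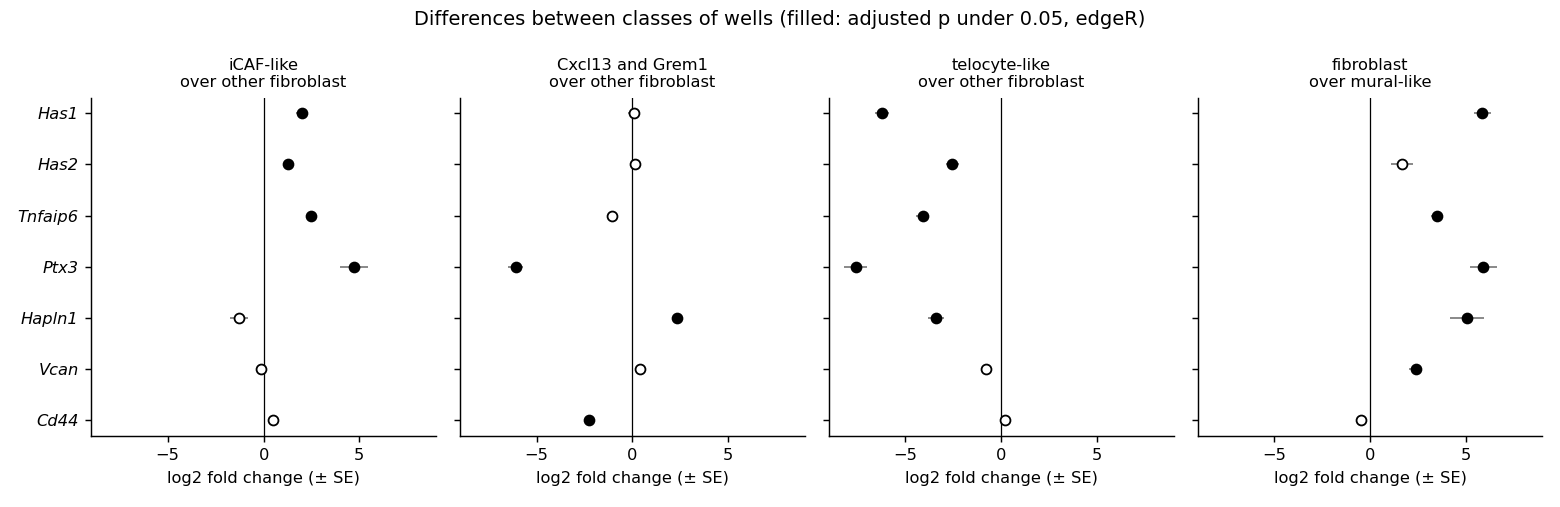
Log2 fold change (horizontal axis, bars ± SE) of the 7 genes in 4 comparisons of well classes within mice; filled points passed an adjusted p of 0.05 in edgeR's quasi-likelihood test. Has1, Has2, Tnfaip6 and Ptx3 lie to the right in iCAF-like wells and to the left in telocyte-like wells, and Hapln1 and Cd44 move apart in Cxcl13 and Grem1 wells.

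Telocyte-like fibroblasts, which line the crypts and supply Wnt and BMP ligands to the epithelium, held little of the synthases and of 3 binding proteins. The comparison used plates 1, 2 and 4. It shares wells with the other subtype comparisons, since the fibroblasts that are telocyte-like here are among the other fibroblasts there. Has1, Has2, Tnfaip6, Ptx3 and Hapln1 were lower, 5 of 7 members, beside 6.4% of the 7246 genes tested called lower, 4.73% higher and 11.1% in all. Has2 was past the filter on low counts in the telocyte-like wells of 1 of 3 mice, and Has1, Ptx3 and Hapln1 in those of none. Has1, Has2, Ptx3 and Hapln1 thus reached it only through the other fibroblasts. Their calls are descriptions and the count of 5 adds no support.

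Has1 fell from 905, 689 and 372 CPM in the other fibroblast wells of plates 1, 2 and 4 to 15.1, 12.4 and 0 CPM in telocyte-like wells (log2 fold change -6.22 ± 0.37, adjusted p = 2.6e-05). Has2 stood at 15.1, 17.9 and 9.86 CPM against 115, 56.4 and 103.4 CPM (-2.55 ± 0.35, adjusted p = 0.0015). For both synthases every telocyte-like value was under every value of the other fibroblasts. Tnfaip6 stood at 133, 73.1 and 39.4 CPM against 1822, 741 and 1398 CPM (-4.10 ± 0.33, adjusted p = 8.1e-05), and Hapln1 at 9.06, 6.89 and 7.39 CPM against 49.7, 124 and 33.1 CPM (-3.40 ± 0.41, adjusted p = 0.00082). Ptx3 stood at 0, 1.38 and 0 CPM against 493, 34.2 and 78.6 CPM, which is 1 transcript in the telocyte-like wells and 936 in the others. The ratio was 383, with a 95% interval of 68.6 to 15160 that covers counting error only. It rested on plate 1, without which it was 45.4, and without plate 2, which held the single transcript, it was at least 108.6 (against 3 counts). Over all plates, the 119 telocyte-like wells held 15.0 transcripts of Ptx3, in 3 wells. The ratio leaves out mice with under 10 such wells. There Ptx3 reached up to 37.5 CPM in Zeb1Fib-Ctrl and up to 79.8 CPM in Zeb1Fib-deleted mice.

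For Vcan and Cd44 the difference did not pass the test. Vcan stood at 366, 593 and 264 CPM in telocyte-like wells against 537, 674 and 658 CPM, lower in all 3 mice (log2 fold change -0.77 ± 0.24, adjusted p = 0.076). Cd44 stood at 489, 396 and 653 CPM against 318, 301 and 687 CPM (0.21 ± 0.20, adjusted p = 0.61). Over all plates, 77.3% of the 119 telocyte-like wells had Vcan and 92.4% had Cd44, while 10.1% had Has1.

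Fibroblasts led by Cxcl13, a B cell attractant, and Grem1, a BMP antagonist, were compared with other fibroblasts on plates 1 and 2, a comparison of 2 mice. Hapln1 was higher, and Cd44 and Ptx3 were lower, 3 of 7 members, beside 1.13% of the 9039 genes tested called higher, 1.59% lower and 2.72% in all. Ptx3 reached the filter on low counts only through the other fibroblasts, so that its call adds no support to this count. These wells also carried iCAF-like markers, with a median of 72.4 transcripts per 10000 from that list and 33.1 from their own. When the leading list had to exceed the next 2 times, 7 of the 107 wells were left and no test could be made.

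Hapln1 stood at 101 and 216 CPM in these wells and at 21.8 and 39.3 CPM in the other fibroblasts (log2 fold change 2.32 ± 0.22, adjusted p = 0.00023). Of all Hapln1 transcripts in kept wells, 67.0% came from this class. Cd44 had 84.7 and 99.4 CPM against 443 and 417 CPM (-2.27 ± 0.20, adjusted p = 0.00018), the lowest mean level among the classes with at least 10 wells in 2 or more mice. Ptx3 had 7.06 and 1.6 CPM against 567 and 32.2 CPM (-6.09 ± 0.39, adjusted p = 3.6e-05), and it lost the call when mouse was not a block (adjusted p = 0.17).

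The synthases and Vcan did not separate this class. Has1 stood at 538 and 736 CPM against 848 and 379 CPM, lower on plate 1 and higher on plate 2 (log2 fold change 0.11 ± 0.31, adjusted p = 0.94), and Has2 at 82.9 and 67.3 CPM against 106 and 35.8 CPM (0.15 ± 0.30, adjusted p = 0.90). Vcan was detected in 99.1% of the 107 wells, at 699 and 720 CPM against 439 and 622 CPM (0.39 ± 0.17, adjusted p = 0.36). Tnfaip6 had 579 and 462 CPM against 1918 and 557 CPM (-1.05 ± 0.29, adjusted p = 0.099).

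Compared with mural-like wells of plates 1, 2, 4 and 5, fibroblasts were higher in 5 of 7 members, beside 6.79% of the 7864 genes tested called higher, 6.19% lower and 13.0% in all. Ptx3 and Hapln1 were past the filter on low counts in the mural-like wells of no mouse. Has1 was past it in those of 1 mouse and Vcan in those of 3 of the 4 mice. Has1, Vcan, Ptx3 and Hapln1 thus reached it only through the fibroblasts, so that their calls add no support. Has1 stood at 763, 476, 139 and 856 CPM in fibroblasts and at 8.76, 5.80, 0 and 67.7 CPM in mural-like wells (log2 fold change 5.85 ± 0.45, adjusted p = 6.8e-06). Tnfaip6 (3.5 ± 0.32, adjusted p = 1.9e-05) and Vcan (2.39 ± 0.35, adjusted p = 0.00067) were also higher in all 4 mice. Mural-like wells had 2 transcripts each of Ptx3 and Hapln1, which gave ratios of 103.2 (95% counting interval 28.5 to 853) and 31.9 (8.75 to 264). Without plate 1 the ratio of Ptx3 was 25.3, and without plate 2 it was at least 42.3. Both Hapln1 transcripts were on plate 4, at 11.6 CPM against 17.0 CPM in fibroblasts. Without plate 4 Hapln1 was at least 19.6-fold higher in fibroblasts, and without plate 2 its ratio was 8.18. Has2 and Cd44 did not pass. Has2 was higher in fibroblasts of 3 of 4 mice (1.67 ± 0.56, adjusted p = 0.079), and without plate 4, the exception, it passed (2.38, adjusted p = 0.021). Cd44 stood at 345, 331, 666 and 247 CPM in fibroblasts and 469, 669, 802 and 441 CPM in mural-like wells, lower in fibroblasts of all 4 mice (-0.49 ± 0.22, adjusted p = 0.20).

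Cd44 separated the neutrophil-like wells. On plates 1 to 6 it stood at 3297, 4379, 3477, 2705, 3951 and 2692 CPM there and at 345, 331, 377, 666, 247 and 570 CPM in fibroblasts, with no overlap. Fibroblasts were lower by a log2 fold change of -3.45 ± 0.32 (adjusted p = 2.1e-18, edgeR). These 2 kinds of cell differ widely: 73.5% of the 3699 genes tested were called, 43.2% higher in fibroblasts and 30.4% lower, so that being called is no mark of the members. Of the 4 members tested, Has1 (4.13 ± 0.43), Tnfaip6 (2.19 ± 0.36) and Vcan (4.42 ± 0.46) were higher in fibroblasts. In neutrophil-like wells, Tnfaip6 was past the filter on low counts in 4 of 6 mice, Has1 in 2 and Vcan in none. Has1, Tnfaip6 and Vcan thus reached it only through the fibroblasts. Tnfaip6 was at 17.1 to 192 CPM in neutrophil-like wells of the 6 mice. With 2000 barcodes drawn from each well, it was found in 13.5% of 141 neutrophil-like wells and in 4.35% of 92 epithelial-like wells, and Has1 in 3.55% and 3.26%. Whether these are transcripts of the cells or free RNA was not tested. Has2, Ptx3 and Hapln1 had no transcript among 729248 from neutrophil-like wells. Set against 3 counts over all those wells, they were at least 17.2-fold, 40.8-fold and 12.7-fold higher in fibroblasts. These bounds pool the mice. For Ptx3, which was 0 in both classes of plate 6, the bound was 11.8-fold without plate 1 and 24.7-fold without plate 3, for Hapln1 it was 6.83-fold without plate 2 and 7.68-fold without plate 3, and for Has2 it was 10.2-fold without plate 3.

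The rest of the pathway was read from a list of 45 genes for precursors, breakdown, receptors and matrix partners. In iCAF-like wells, 10 of the 25 list genes tested were higher and 1 was lower, beside 4.65% and 3.95% of all genes tested. Of those called higher, Ezr was past the filter on low counts in the iCAF-like wells of 3 mice and the other fibroblast wells of 2. Adamts15 was past it in those of 2 mice and 1 mouse. The calls of Ezr and Adamts15 add no support to this count. Of 6 tested genes that supply the sugar precursors, 4 were higher. Uap1, which makes UDP-N-acetylglucosamine, stood at 446, 172 and 470 CPM in iCAF-like wells of plates 1, 2 and 5 against 57.9, 60.2 and 78.3 CPM (log2 fold change 2.46 ± 0.28, adjusted p = 0.00087). Ugdh, which makes UDP-glucuronic acid, had 1504, 420 and 736 CPM against 298, 203 and 175 CPM (1.95 ± 0.25, adjusted p = 0.0016). Gfpt2, an entry enzyme of the hexosamine pathway, was also higher (2.04 ± 0.28, adjusted p = 0.0021), whereas the other entry enzyme on the list, Gfpt1, did not pass (0.36 ± 0.21, adjusted p = 0.37). Also higher was Itih5, which encodes an inter-alpha-trypsin inhibitor heavy chain (1.14 ± 0.15, adjusted p = 0.0018). The gene called lower was Cemip, which encodes a hyaluronan-degrading protein and is listed under its older name 9930013L23Rik. It had 2 transcripts in the iCAF-like wells and 142 in the other fibroblast wells, a ratio of 69.5 with a 95% counting interval of 18.9 to 580, and reached the filter on low counts only through the latter. Among fibroblasts outside the telocyte-like wells Cemip was also low on plates 1, 2 and 4, at 6.28, 0 and 0 CPM.

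In telocyte-like wells, 8 of 22 list genes tested were lower and Cemip alone was higher, beside 6.4% and 4.73% of all genes tested. Cemip reached the filter only through the telocyte-like wells. It stood at 142, 46.9 and 427 CPM in telocyte-like wells of plates 1, 2 and 4 against those values in the others (log2 fold change 5.25 ± 0.49, adjusted p = 0.00019). The precursor genes Gfpt2 (-4.06 ± 0.47), Ugdh (-2.72 ± 0.34) and Uap1 (-2.57 ± 0.33) were lower, with adjusted p of 0.00060, 0.0010 and 0.0011. Of these genes, Gfpt2 reached the filter only through the other fibroblasts. Adamts5, a protease that cleaves versican, was lower too (-2.22 ± 0.31, adjusted p = 0.0017). Over the list, the median log2 fold change was 0.36 in iCAF-like and -0.38 in telocyte-like wells, beside -0.01 and 0.01 over all genes tested. Each of these subtypes is among the other fibroblasts of the other comparison, so that opposite signs are partly built in. In Cxcl13 and Grem1 wells none of 24 list genes tested was called by edgeR, where 246 genes were called in all.

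**Figure D3:**
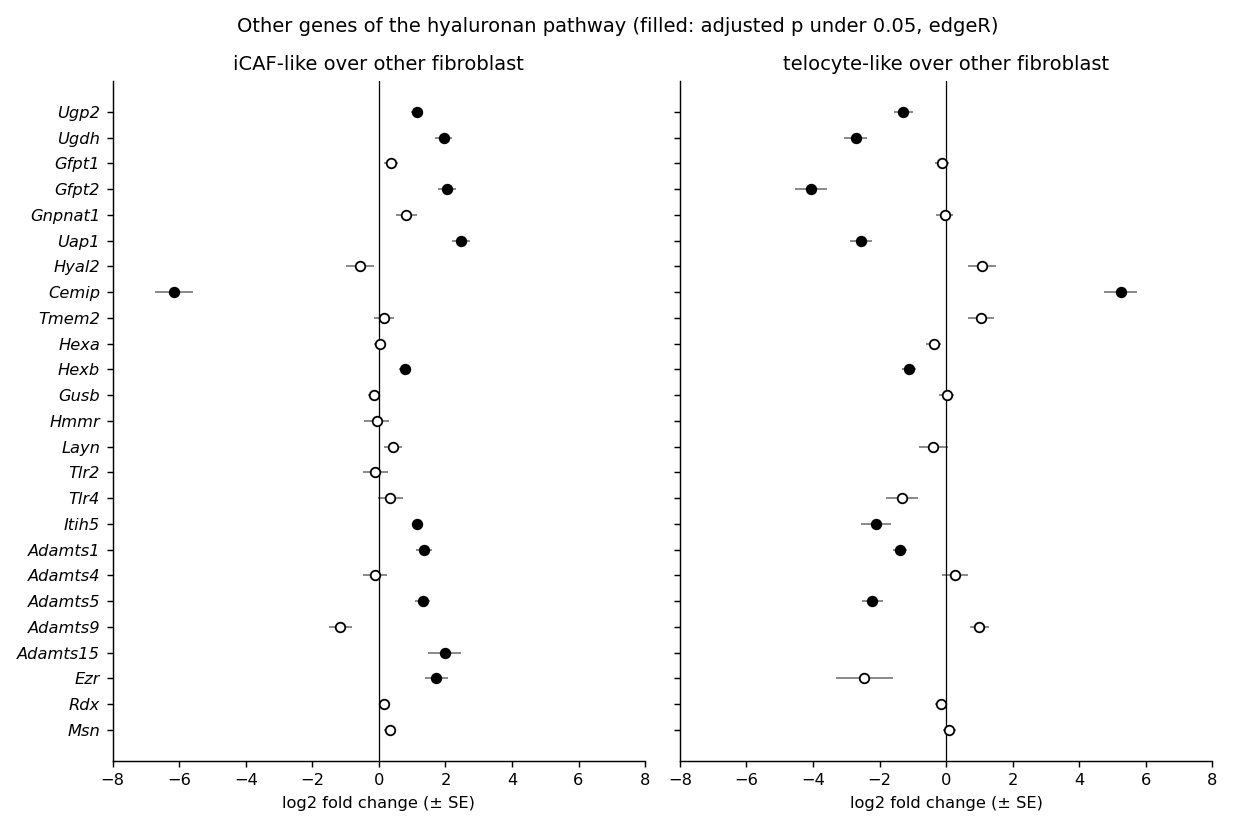
Log2 fold change (horizontal axis, bars ± SE) of the pathway genes tested in iCAF-like and in telocyte-like wells, each against the other fibroblast wells of the same mice; filled points passed an adjusted p of 0.05 in edgeR. The precursor genes Ugdh, Gfpt2 and Uap1 are filled on the right in iCAF-like wells and on the left in telocyte-like wells, and Cemip lies on the opposite side in both. The comparisons share wells, so that opposite signs are partly built in.

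Against mural-like wells, 8 of 22 list genes tested were higher in fibroblasts and 5 lower, beside 6.79% and 6.19% of all genes tested. Ugdh (3.04 ± 0.27, adjusted p = 1.9e-05) and Gfpt2 (3.60 ± 0.35, adjusted p = 2.7e-05) were higher. Of 5 proteases tested that cleave versican, 4 were higher in mural-like wells, among them Adamts4 (-2.63 ± 0.35, adjusted p = 0.00034) and Adamts1 (-1.73 ± 0.25, adjusted p = 0.00058), and Adamts5 was higher in fibroblasts (2.80 ± 0.47, adjusted p = 0.0016). Of the called genes, Gfpt2, Adamts5, Itih5 and Layn reached the filter on low counts only through the fibroblasts. Adamts15 and Adamts9 reached it only through the mural-like wells. The calls of these genes add no support to the counts. Against neutrophil-like wells, 12 of 15 were higher and 3 lower, in a comparison that calls 43.2% of all genes tested higher and 30.4% lower. The latter were Tlr2, a receptor that binds hyaluronan fragments (-5.73 ± 0.37), and Ezr and Msn (-4.06 ± 0.36 and -2.30 ± 0.31), which tie Cd44 to actin. Rdx, which does so too, was higher in fibroblasts (1.93 ± 0.41), as were Gfpt2 (3.08 ± 0.41) and Adamts1 (3.32 ± 0.47). Of the genes named against neutrophil-like wells, all but Msn reached the filter only through the class where they were higher. The third synthase, Has3, had 10 transcripts in all kept wells.

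Synthases and binding proteins were then followed in single wells. Among 241 iCAF-like wells, 91 had both synthases, 96 only Has1, 10 only Has2 and 44 neither. Of the 107 Cxcl13 and Grem1 wells, 37 had both, and of the 119 telocyte-like wells 3 had both and 91 neither. Has1 was in 90.1% of the iCAF-like wells with Has2 and in 77.6% of all iCAF-like wells, and in 15.8% of the telocyte-like wells with Has2 and 10.1% of all of them. Of 75 fibroblast wells with Ptx3, 69 also had Tnfaip6, which was in 71.7% of all fibroblast wells and in 87.1% of iCAF-like wells, where 62 of the 75 lie. Of 100 fibroblast wells with Hapln1, 96 had Vcan, which was in 75.8% of all fibroblast wells and in 99.1% of Cxcl13 and Grem1 wells, where 58 of the 100 lie. Such shares rise with the depth of a well, and so wells were also thinned to 2000 barcodes, which left 481 of the 533 fibroblast wells.

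In these thinned wells, Tnfaip6 was found more often beside Has1 in each of the 5 mice with at least 5 wells with and 5 without Has1. On plates 1 to 5 it was in 75.4%, 50.0%, 85.7%, 50.0% and 76.1% of the wells with Has1, and in 41.4%, 31.1%, 10.0%, 9.76% and 50.8% of those without. The mean difference was 38.8 ± 22.2 percentage points (SD, n = 5). An exact sign permutation test over mice, two-sided, gave p = 0.063, the smallest p that 5 mice allow, and 0.63 after adjustment over 10 pairs of a synthase and a binding protein. Ptx3 was more frequent beside Has1 in 4 of 5 mice (mean difference 9.66 ± 15.5 points, exact p = 0.31). The difference in share was -3.08 ± 2.73 points for Hapln1, 0.24 ± 24.1 for Vcan and -1.24 ± 15.1 for Cd44, with exact p of 0.13, 1 and 0.94. For Has2, 3 mice could be used, which cannot give an exact p below 0.25, and the differences ranged from -0.47 (Vcan) to 15.0 points (Tnfaip6).

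The same pairs were followed within iCAF-like wells alone, a setting chosen after the data had been seen. For Has1 and Tnfaip6 the difference was 30.2, 16.7 and 24.5 percentage points on plates 1, 2 and 5, a mean of 23.8 ± 6.81 (exact p = 0.25, the smallest that 3 mice allow). For Has1 and Ptx3 it was 38.3, 1.40 and 2.33 points on these plates. On plate 1, Ptx3 was in 19 of 46 iCAF-like wells with Has1 and 1 of 33 without. In wells not thinned the differences were 16.9, 6.54 and 21.1 points, so that plate 1 no longer stood apart.

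**Figure D4:**
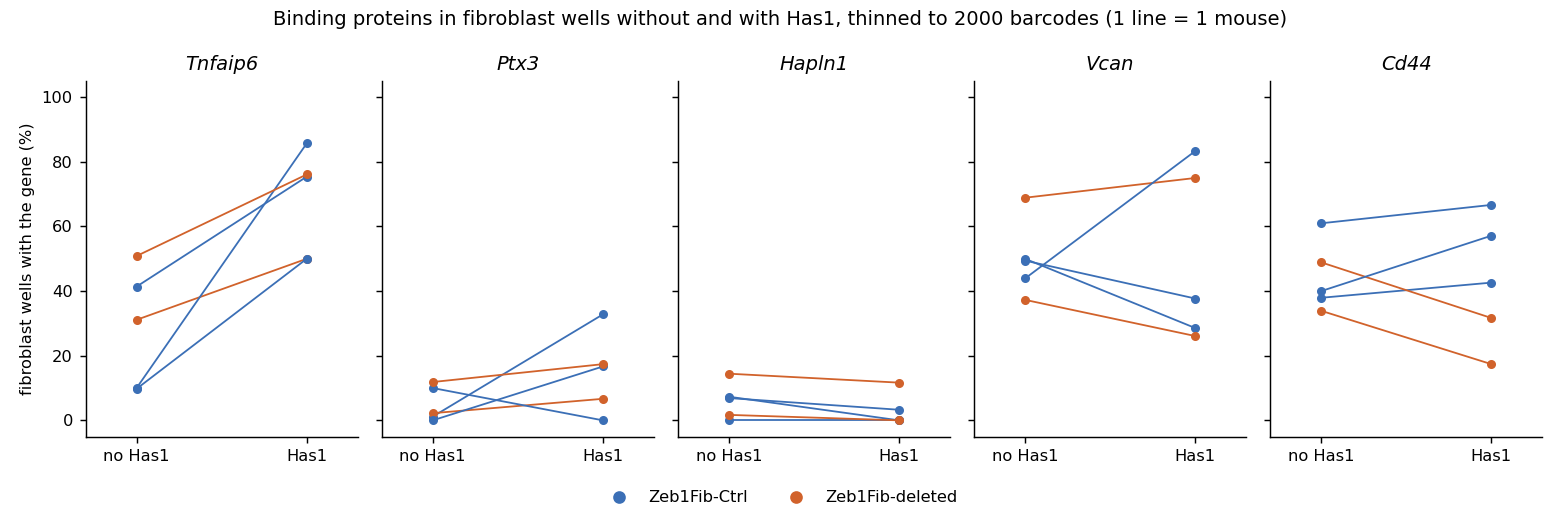
Share of fibroblast wells with each binding protein (vertical axis, percent) among wells without and with Has1, after thinning to 2000 barcodes; 1 line is 1 mouse. The Tnfaip6 lines rise in all 5 mice, from 9.76% to 50.8% without Has1 to 50.0% to 85.7% with it, while the Vcan and Cd44 lines go both ways.

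The genotypes were compared over the fibroblast wells of each mouse. No member was called, and neither was any of the 8491 genes tested (0.0% by edgeR, with 125 at an unadjusted p under 0.05, and 1 gene by DESeq2). The CPM ranges of the genotypes overlapped for all 7 members, while they did not for 6.22% of the genes tested. Has1 stood at 763, 709 and 139 CPM on plates 1, 3 and 4 (Zeb1Fib-Ctrl) and at 476, 856 and 368 CPM on plates 2, 5 and 6 (Zeb1Fib-deleted), with means of 537 ± 346 and 567 ± 256 CPM (SD, n = 3). The spread between mice of a genotype exceeded the difference between genotypes. Has2 was at 99.4, 46.6 and 44.8 CPM against 44.3, 108 and 12.5 CPM. Tnfaip6 was at 1553, 399 and 547 CPM against 531, 1116 and 146 CPM.

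Of the other members, Ptx3 varied most and Vcan and Cd44 least, by the SE of the fold change. Ptx3 was at 414, 38.1 and 29.4 CPM against 23.9, 145 and 0 CPM, and plate 1 alone set the higher Zeb1Fib-Ctrl mean: the log2 fold change (Zeb1Fib-deleted over Zeb1Fib-Ctrl) was -1.45 ± 1.17 with it and 1.06 without. Hapln1 was at 43.2, 12.7 and 17.0 CPM against 87.4, 31.7 and 12.5 CPM. Vcan was at 509, 296 and 411 CPM against 648, 326 and 326 CPM, and Cd44 at 345, 377 and 666 CPM against 331, 247 and 570 CPM. The log2 fold changes were 0.11 ± 0.60 for Has1, -0.13 ± 0.59 for Has2, -0.44 ± 0.73 for Tnfaip6, 0.82 ± 0.61 for Hapln1, 0.11 ± 0.34 for Vcan and -0.26 ± 0.34 for Cd44, all with an adjusted p of 0.9996 (edgeR). With errors of this size, a change of 1 log2 unit in either synthase was not detectable. The mice also differed in their subtypes: iCAF-like wells made up 87 of 172 fibroblast wells on plate 1, 60 of 167 on plate 2, 8 of 50 on plate 4 and 75 of 113 on plate 5. Its part in the levels was not tested.

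**Figure D5:**
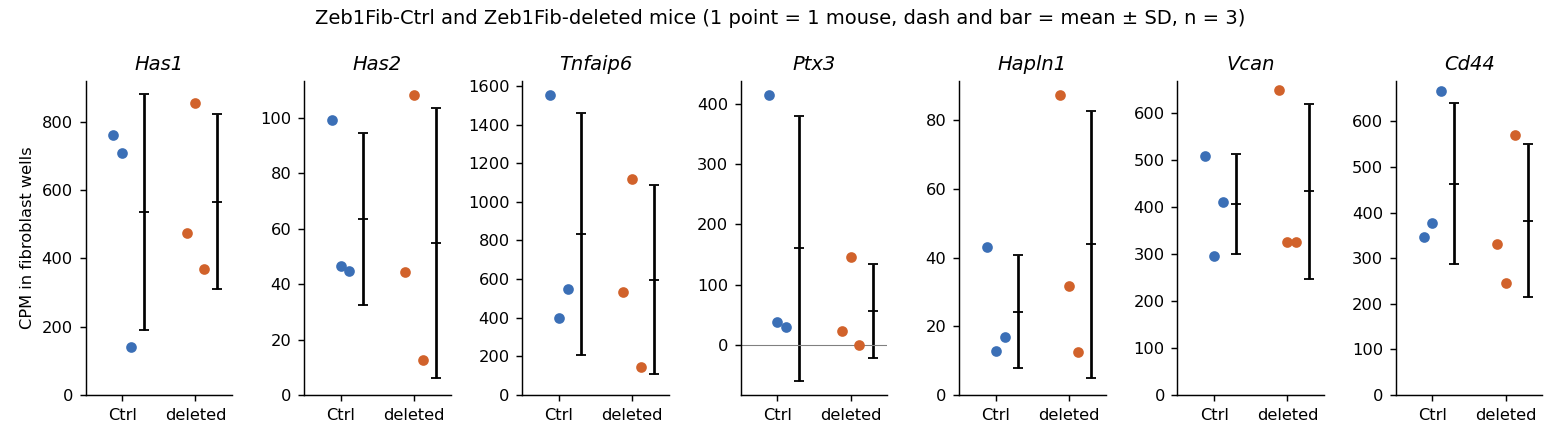
CPM of the 7 genes (vertical axes, own scale for each gene) in the fibroblast wells of 3 Zeb1Fib-Ctrl and 3 Zeb1Fib-deleted mice; points are mice, dashes and bars are mean ± SD. The genotypes overlap for every gene, and 1 Zeb1Fib-Ctrl mouse at 414 CPM lies far above the others for Ptx3.

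Within iCAF-like wells, Has1 was at 1146, 1382 and 581 CPM on plates 1, 3 and 4 and at 703, 1209 and 1172 CPM on plates 2, 5 and 6, where plates 3, 4 and 6 had only 7, 8 and 4 such wells. Over all kept wells, where fewer fibroblasts and less RNA per fibroblast cannot be told apart, again no member was called (0.0% of 10424 genes tested by edgeR, 73 at an unadjusted p under 0.05, 0 by DESeq2). The ranges overlapped for all members, beside 3.86% of genes where they did not. The log2 fold changes there ran from -1.92 ± 1.60 (Ptx3) to 0.66 ± 0.96 (Hapln1).

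Genes most like each member were ranked over 24 sums per mouse and class, each of at least 10 wells, among 7028 genes. The sums share libraries and differ in depth, and the correlations of log2(CPM + 1) are descriptions. For Has1 they were Cd34 (r = 0.89), Gsn (0.89) and C3 (0.88), of which Cd34 and C3 are markers used to define iCAF-like wells. For Tnfaip6 they were Gsn (0.90), Gfpt2 (0.89) and Ccl7 (0.86), for Ptx3 Ptgis (0.85), AW551984 (0.84) and Cilp (0.80), and for Has2 Tmtc2 (0.82), Fn1 (0.80) and Ugp2 (0.79). The genes of the pathway list among them, Gfpt2 and Ugp2, belong to precursor synthesis. Hapln1 was most like Alpl (0.85), Cntn1 (0.85) and Adam23 (0.81), and Vcan most like Spon2 (0.92), Fam149a (0.89) and Col5a1 (0.88). Cd44 was most like Vasp (0.94), Arpc2 (0.93) and Actb (0.93), which encode actin and proteins that shape it.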

How the data were processed

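SORT-seq tables of 6 mice were used, 1 plate each and 3 per genotype, grouped by the genotype label. The authors split reads by well and barcode, mapped them with bwa against GRCm38 transcripts and had them counted by the company that sequenced them. The deposited barcode tables hold whole counts of molecules seen, used here to thin wells. The deposited transcript tables hold estimated counts, which the authors derived from these by correcting for molecules with a common barcode. Neither is normalized. A gene not listed on a plate was taken as 0, and spike-in RNA (7.85% to 18.6% of transcripts) was left out. Plate 6 came from another sequencing run.

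Wells with 100 to 6000 genes and under 10% of transcripts from chrM were used, and no doublet caller was run. A well went to the marker list with the highest score, the mean log2 of 1 plus transcripts per 10000 as a share of its 95% quantile over wells, with at least 2 markers and a score of 0.3 (cell types) or 0.4 (subtypes). This scoring was set after seeing the data. The lists hold no gene tested here as a member or pathway gene.

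Estimated counts were summed per mouse, and for class comparisons per mouse and class with at least 10 wells. The rounded sums were fitted in edgeR 4.0.16 (TMM, filterByExpr, quasi-likelihood F-test) and adjusted over all genes by Benjamini-Hochberg, with a threshold of 0.05 and, for classes, mouse as a block. DESeq2 1.42.0 served as an alternative. An SE is the size of the log2 fold change divided by the root of its F. Nothing used here states that mice came from separate litters. Shares of wells were compared by exact sign permutation over mice. Scripts were tested on simulated data. Named were the 7 members, per comparison the called pathway genes with the smallest p (at most 5), and the 3 genes most like each member with a mean of at least 20 CPM. The members and lists were chosen with earlier results of these data known.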

Additional observations from a re-analysis of the deposited data

Results flagged for a closer look

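The 1071 wells outside the limits on genes and mitochondrial transcripts, which no comparison uses, held transcripts of all 7 genes. They had 581 transcripts of Has1, 132.1 of Has2, 787.7 of Tnfaip6, 220.8 of Ptx3, 102.1 of Hapln1, 956.3 of Vcan and 3024 of Cd44 among 7455834 in all. Per 1000000 transcripts these are 77.9, 17.7, 106, 29.6, 13.7, 128 and 406, against 404, 50.0, 643, 112, 35.5, 360 and 649 in the kept wells, so that all 7 were lower in the wells left out. These totals include mitochondrial transcripts, a high share of which is a reason for leaving a well out. The wells left out were not assigned to classes, and the part of either in the lower values was not tested.

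Both synthases moved in opposite directions in the 2 mice with enough Cxcl13 and Grem1 wells. In log2(CPM + 1), Has1 was lower in these wells than in other fibroblasts of the Zeb1Fib-Ctrl mouse (plate 1, a difference of -0.66) and higher in those of the Zeb1Fib-deleted mouse (plate 2, 0.95), which are 1.61 apart. Has2 did likewise (-0.35 and 0.89, 1.24 apart). There is 1 mouse per genotype, and the difference was not tested.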

How the results depend on the processing

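Of the members' fold changes that passed the test, 228 alternative values also passed, 8 did not and none reversed, and of those that did not pass, 247 were alike, 10 passed and 31 changed sign. The cause was not tested where none is given. No pair of a synthase and a binding protein passed the adjusted threshold, which says nothing of stability, since 5 or fewer mice cannot give an exact p under 0.0625. With 6 mice (wells not thinned, or all kept wells) Has1 with Tnfaip6 was higher in 6 of 6 and reached the smallest exact permutation p, 0.03125 (adjusted 0.125 and 0.208). In wells not thinned, shares rise with depth. Over all kept wells, 98.6% of Has1 and 96.4% of Tnfaip6 transcripts came from fibroblast wells. These 2 settings therefore cannot tell pairing in single wells apart from depth or cell class.

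With DESeq2, 1 gene was called between genotypes in fibroblast wells (Procr, named after its value was seen), 399 in iCAF-like, 493 in telocyte-like, 76 in Cxcl13 and Grem1, and 5798 against neutrophil-like wells. Without the filter on low counts, 1620 genes were called against mural-like wells, 1321 in iCAF-like, 1356 in telocyte-like, 540 in Cxcl13 and Grem1 and 7509 against neutrophil-like wells, where all 7 members were then tested and called. Without mouse as a block, 229 genes and 2 members were called in iCAF-like wells and 68 genes in Cxcl13 and Grem1 wells. Without telocyte-like wells among the others, a setting added after seeing the data, 196 and 130 genes were called, Hapln1 was lower in iCAF-like wells (log2 fold change -2.10, adjusted p = 0.049, edgeR), Tnfaip6 was lower in Cxcl13 and Grem1 wells (-1.62, adjusted p = 0.038), and Has1 and Has2 there turned to -0.50 and -0.27. Has1 in Cxcl13 and Grem1 wells also turned to -0.012 without the block and to -0.086 with only mt- genes as mitochondrial. Vcan in iCAF-like wells turned to 0.12 with only mt- genes and to 0.31 with the stricter gate, which also turned Cd44 in telocyte-like wells to -0.22 and Has1 between genotypes in fibroblast wells to -0.037. Under the stricter gate Ptx3 in iCAF-like wells did not pass (3.17, adjusted p = 0.095).

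Leaving out 1 mouse at a time, the genes called ranged from 631 to 1073 against mural-like wells (631 without plate 2), 261 to 949 in iCAF-like wells (426 without plate 1 and 261 without plate 2) and 384 to 1328 in telocyte-like wells (384 without plate 1, 476 without plate 2 and 1328 without plate 4). Cd44 in iCAF-like wells ranged from 0.31 to 0.71 and passed without plate 5 (adjusted p = 0.011, edgeR). Between genotypes the log2 fold change over all kept wells ranged from -0.60 to 0.82 for Has1, -1.08 to 0.46 for Has2, -1.50 to 0.54 for Tnfaip6, -3.67 to 1.22 for Ptx3, -0.61 to 1.92 for Hapln1, -0.77 to 0.63 for Vcan and -1.17 to 0.27 for Cd44. In fibroblast wells it ranged from -0.38 to 0.52 for Has1, -0.98 to 0.52 for Has2, -1.30 to 0.47 for Tnfaip6, -3.31 to 1.06 for Ptx3, -0.12 to 1.77 for Hapln1, -0.30 to 0.37 for Vcan and -0.61 to 0.024 for Cd44. No plate left out gave a call for a member between genotypes.

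The difference in percentage points for Has1 with Tnfaip6 ran from 17.6 to 43.8 over all alternatives. In wells not thinned it was 7.54 for Has1 with Hapln1, 0.957 for Has1 with Cd44 and 14.5 for Has2 with Vcan. At 4000 barcodes it was -1.40 for Has1 with Vcan, 2.02 for Has1 with Cd44, 13.2 for Has2 with Vcan and -8.85 for Has2 with Cd44. Over all kept wells it was 12.9 for Has2 with Vcan and -0.315 for Has2 with Cd44. In iCAF-like wells it was -10.4 for Has1 with Vcan, -0.783, -3.09 and 4.41 for Has2 with Tnfaip6, Hapln1 and Vcan, and, not thinned, 21.2 for Has1 with Cd44 and -0.729 and 9.72 for Has2 with Hapln1 and Vcan. Leaving out 1 mouse gave -9.56 to 5.66 for Has1 with Vcan, -5.84 to 2.76 for Has1 with Cd44, -0.619 to 1.04 for Has2 with Hapln1 and -5.32 to 3.46 for Has2 with Vcan.

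Depth limits the rarer genes, since Has2, Ptx3 and Hapln1 had 486, 1091 and 345 transcripts in all kept wells and intervals cover counting error only. Cxcl13 and Grem1 wells could not be fitted with the stricter gate or with 1 of their 2 mice left out. No paired analysis was possible because replicate numbers of the genotypes mark no shared litter or day.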
